A study of Mus musculus with 2 samples.

Results

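The 10 genes described here are small leucine-rich proteoglycans (SLRPs), chosen by symbol from the family and not by their values: Dcn, Bgn, Fmod, Lum, Prelp, Ogn, Omd, Aspn, Epyc and Kera. They are 10 of the 32285 genes counted in each of 2 single-cell RNA sequencing (scRNA-seq) libraries of mouse fracture callus, the repair tissue that bridges a broken bone. SLRPs are secreted matrix proteins with a core of leucine-rich repeats, most of which carry sulfated sugar chains. They bind fibrillar collagens and influence how fibrils assemble, and several also bind growth factors of the TGF-beta family. Cartilage, tendon, bone and loose connective tissue each hold a different mixture of them.

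Both libraries, MGJ and MGJ2, came from wild-type mice with a femoral fracture, which the methods of the study give as C57BL/6J mice with a transverse mid-femur break held by a needle in the marrow cavity. Calluses were collected at 10 and 20 days post-fracture (dpf) from 5 mice each, and cells were freed by enzyme digestion and captured with 10x Genomics 3' chemistry. Neither library carries a day in its labels, so MGJ and MGJ2 were treated as 2 samples of callus, their values stand side by side without a test, and no time course was drawn. Whether the mice of a time point were pooled is not given in the sources used here.

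After filtering, MGJ held 12972 cells with 125900501 unique molecular identifiers (UMIs, each 1 captured RNA molecule), and MGJ2 held 7583 cells with 58050170. Cells were clustered without the SLRP genes and clusters were named by marker genes, with "-like" marking a name that rests on markers only. MGJ held 2995 chondrocyte-like cells, 552 tendon-like cells, 331 fibroblast-like cells, 281 osteoblast-like cells, 135 pericyte and smooth muscle-like cells and 233 endothelial-like cells, while 4824 cells were blood cells and 3616 cells in 8 clusters took no name. In MGJ2 7185 of the 7583 cells were blood cells, and its 172 chondrocyte-like cells were the only stromal class of 50 cells or more. All 12 chondrocyte markers stood above the other cells of MGJ in the chondrocyte-like class. In the osteoblast-like class of MGJ 8 of the 9 osteoblast markers did so. These 9 markers summed to 19518 CPM there, close to the 18338 CPM of tendon-like cells. The osteoblast-like class held Bglap at 526 CPM but also Col2a1, the main cartilage collagen, at 18406 CPM. The 12 chondrocyte markers summed to 35146 CPM in it, and the part of cartilage RNA in its values was not tested. The size of this class also depended on the processing. It held 0 cells at Leiden resolution 0.5 and 59 when at most 10% mitochondrial UMIs were allowed, so its levels below hold for the main setting. The libraries shared 19 barcode sequences, of which 13 were kept in both.

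Levels are CPM, the UMIs of a gene summed over a class per 1000000 UMIs of that class. Each captured molecule counts once in 3' data, so CPM does not grow with transcript length. Intervals in parentheses are exact 95% Poisson limits for a level, exact conditional binomial limits for a ratio and exact Clopper-Pearson limits for a share of cells. They cover counting error only, since each class is 1 sample per library and no replicate spread exists.

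Most members lie beside one another in the genome. In GRCm38 coordinates, Dcn (chr10:97479609-97518143), Lum (chr10:97565128-97572703), Kera (chr10:97606879-97613692) and Epyc (chr10:97644068-97682454) follow each other on the plus strand of chromosome 10, with no other protein-coding gene between them, over 203 kb. Aspn (chr13:49544443-49567565), Omd (chr13:49582462-49592822) and Ogn (chr13:49608046-49624501) do the same on chromosome 13 over 80.1 kb, with Ecm2, another leucine-rich repeat gene, as the neighbour before Aspn. Prelp (chr1:133910304-133921414, minus strand) and Fmod (chr1:134037254-134048277, plus strand) are adjacent coding genes on chromosome 1, and Bgn (chrX:73483602-73495933, plus strand) stands alone.

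The start regions of the 3 chromosome 13 neighbours are shown because Omd was highest in chondrocyte-like cells of MGJ, but Aspn and Ogn in tendon-like cells. Those of Epyc are shown because it had the largest chondrocyte-like to fibroblast-like ratio of the family in MGJ. Each is the RefSeq window (GRCm38.p6, plus strand) from 250 bases before to 50 after an annotated start, and Epyc has 2 such starts. Capitals mark matches on either strand to TATAAA, the letters of a core promoter element, or to ACAATG, a core of the kind bound by SOX factors. A match of letters does not show that the element works at that position, and this was not tested.
Aspn, chr13:49544193-49544492: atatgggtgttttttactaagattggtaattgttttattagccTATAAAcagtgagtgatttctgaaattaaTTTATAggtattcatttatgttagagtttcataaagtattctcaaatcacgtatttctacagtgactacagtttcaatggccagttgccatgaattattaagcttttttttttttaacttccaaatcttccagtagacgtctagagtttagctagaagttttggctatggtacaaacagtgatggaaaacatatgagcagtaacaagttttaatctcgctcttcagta
Omd, chr13:49582212-49582511: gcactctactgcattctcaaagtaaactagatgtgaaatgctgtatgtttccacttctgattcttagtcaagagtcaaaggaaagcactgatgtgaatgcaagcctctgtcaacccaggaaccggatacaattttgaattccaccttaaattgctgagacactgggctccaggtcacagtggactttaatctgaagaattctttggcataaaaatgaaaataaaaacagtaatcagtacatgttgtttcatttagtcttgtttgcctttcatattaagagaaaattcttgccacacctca
Ogn, chr13:49607765-49608064: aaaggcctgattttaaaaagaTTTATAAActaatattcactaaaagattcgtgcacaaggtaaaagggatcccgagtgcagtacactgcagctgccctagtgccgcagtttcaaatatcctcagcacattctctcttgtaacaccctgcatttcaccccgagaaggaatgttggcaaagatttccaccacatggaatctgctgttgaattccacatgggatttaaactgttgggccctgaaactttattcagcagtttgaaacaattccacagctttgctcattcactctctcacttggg
Epyc, upstream start, chr10:97643818-97644117: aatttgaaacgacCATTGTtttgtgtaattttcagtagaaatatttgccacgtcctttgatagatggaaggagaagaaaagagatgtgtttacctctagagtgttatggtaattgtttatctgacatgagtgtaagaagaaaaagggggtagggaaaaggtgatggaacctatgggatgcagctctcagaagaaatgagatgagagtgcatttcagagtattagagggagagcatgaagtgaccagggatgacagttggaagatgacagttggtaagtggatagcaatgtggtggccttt
Epyc, downstream start, chr10:97646853-97647152: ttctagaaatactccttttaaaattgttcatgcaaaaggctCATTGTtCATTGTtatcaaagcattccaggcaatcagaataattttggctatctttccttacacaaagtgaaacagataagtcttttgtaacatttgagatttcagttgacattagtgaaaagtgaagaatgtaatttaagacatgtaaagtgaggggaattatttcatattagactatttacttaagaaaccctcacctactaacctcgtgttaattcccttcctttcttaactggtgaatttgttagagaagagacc
In the upstream Epyc window 1 match to ACAATG began at position -237 from the start, and the downstream window held 2, the first at position -209. Of 32851 RefSeq start windows, 12.57% held ACAATG. Aspn held 2 matches to TATAAA, the first at position -207. The 2 matches in Ogn overlapped from position -229. TATAAA occurred in 13.62% of all windows. The Omd window held neither sequence. The other sequence searched, CATCTG (an E-box, in 17.15% of windows), was found in none of these 5. Of the 10 members, 8 had a start window, and Dcn and Lum did not.

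scRNA-seq analysis revealed that the family as a whole belonged to stromal cells. Summed over the 10 genes, MGJ held 14321 CPM in tendon-like, 10667 CPM in osteoblast-like, 10462 CPM in fibroblast-like, 7526 CPM in chondrocyte-like, 3582 CPM in pericyte and smooth muscle-like and 530 CPM in endothelial-like cells, against 132 CPM over the blood cell classes. In MGJ2 the sum was 6955 CPM in chondrocyte-like cells and 9.7 CPM in blood cells. Set against blood cells, members at least 2-fold higher numbered 10 of 10 tested in chondrocyte-like cells (29.4% of all genes tested), 10 of 10 in tendon-like cells (26.7% of all genes), 9 of 9 in osteoblast-like cells (21.8%), 8 of 9 in fibroblast-like cells (21.0%), 8 of 9 in pericyte and smooth muscle-like cells (22.2%) and 7 of 9 in endothelial-like cells (26.6%). In MGJ2 chondrocyte-like cells it was 9 of 9 (20.2% of all genes). Genes were tested where the classes compared held at least 50 UMIs together, so Kera dropped out of 5 of these 7 comparisons. In the chondrocyte-like and tendon-like comparisons of MGJ it passed only through those classes, with 250 and 978 UMIs against 6 in blood cells. Its call there followed from this filter and adds nothing to the counts of 10.

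**Figure D1:**
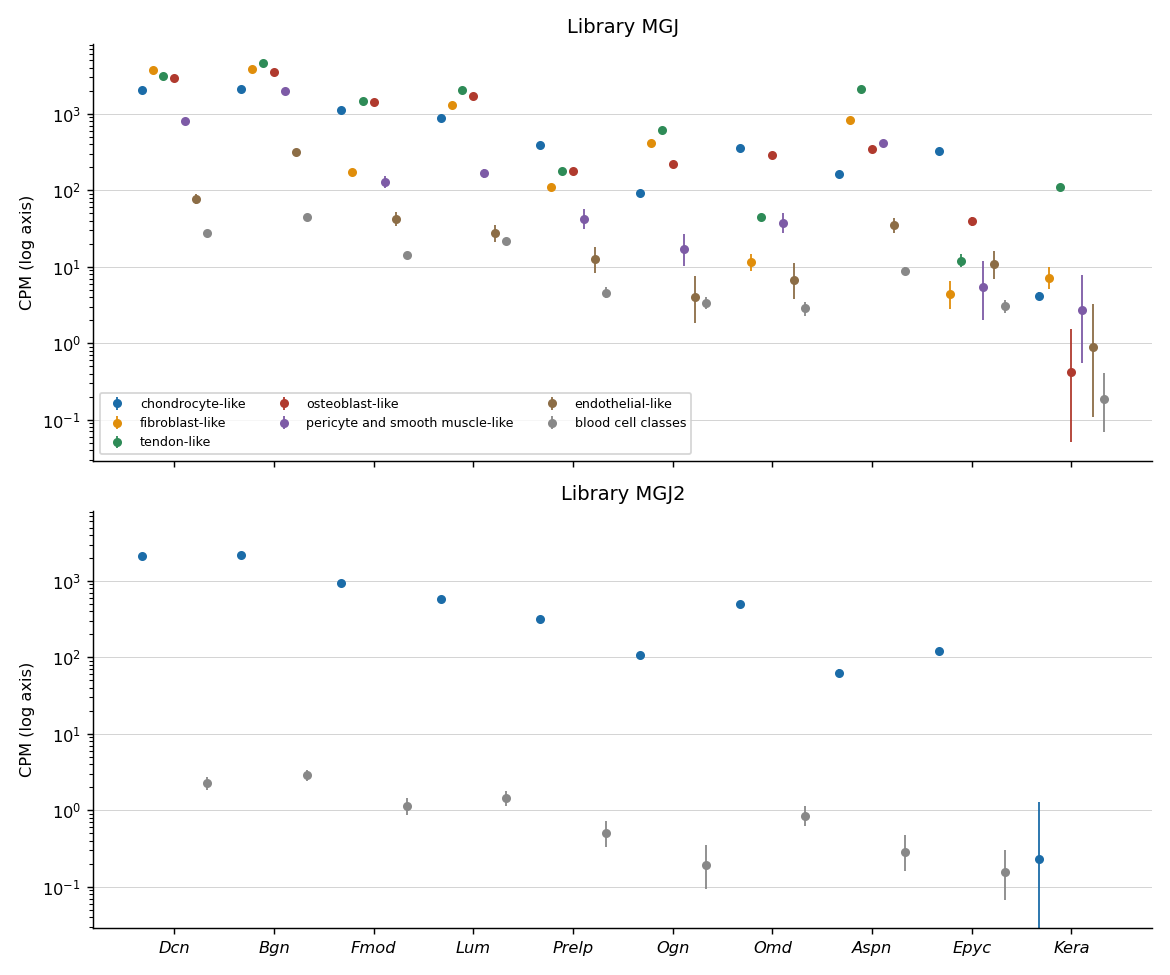
Level of each SLRP gene in CPM (log axis) by cell class, in MGJ above and in MGJ2 below, with 95% Poisson intervals as bars; a class with 0 UMIs has no point. In MGJ the tendon-like points are highest for Bgn, Fmod, Lum, Ogn, Aspn and Kera, and the chondrocyte-like points are highest for Prelp, Omd and Epyc.

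Decorin (Dcn) and biglycan (Bgn), the proteoglycans that carry chondroitin or dermatan sulfate chains and bind TGF-beta, were the most abundant members. The level of Dcn in MGJ was 3722 CPM in fibroblast-like cells (3671 to 3774), 3103 CPM in tendon-like cells, 2981 CPM in osteoblast-like cells, 2061 CPM in chondrocyte-like cells (2049 to 2072), 798 CPM in pericyte and smooth muscle-like cells and 77.6 CPM in endothelial-like cells. Each of these neighbours in the order differed beyond counting error, although tendon-like and osteoblast-like cells were only 1.04-fold apart (1.02 to 1.06). Dcn was highest in fibroblast-like cells by 1.20-fold over tendon-like cells, and this first place was lost in 2 of the alternative settings. Bgn was highest in tendon-like cells at 4593 CPM (4549 to 4637), followed by 3869 CPM in fibroblast-like, 3483 CPM in osteoblast-like, 2122 CPM in chondrocyte-like and 1971 CPM in pericyte and smooth muscle-like cells. In endothelial-like cells Bgn stood at 312 CPM (290 to 336), 6.94-fold above blood cells. In MGJ2, chondrocyte-like cells held 2112 CPM of Dcn (2068 to 2156) and 2216 CPM of Bgn (2172 to 2261).

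Asporin (Aspn), the relative of decorin and biglycan whose N-terminus is rich in aspartate and carries no sugar chain of that kind, followed a different pattern. Its level in MGJ was 2137 CPM in tendon-like cells (2107 to 2168), 842 CPM in fibroblast-like cells, 413 CPM in pericyte and smooth muscle-like cells, 349 CPM in osteoblast-like cells, 163 CPM in chondrocyte-like cells (160 to 166) and 34.8 CPM in endothelial-like cells. Tendon-like cells exceeded fibroblast-like cells by 2.54-fold (2.46 to 2.62), and every neighbouring pair in this order differed beyond counting error. In MGJ2 chondrocyte-like cells Aspn was at 63.1 CPM (55.8 to 71.1).

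Fibromodulin (Fmod), lumican (Lum) and Prelp, a group known for keratan sulfate chains or for binding collagen at matrix borders, split between cartilage and connective tissue. Fmod stood at 1476 CPM in tendon-like, 1411 CPM in osteoblast-like and 1124 CPM in chondrocyte-like cells of MGJ, but at only 175 CPM in fibroblast-like cells (164 to 187). Lum was broader, with 2051 CPM in tendon-like, 1719 CPM in osteoblast-like, 1311 CPM in fibroblast-like and 891 CPM in chondrocyte-like cells. Prelp was highest in chondrocyte-like cells at 389 CPM (384 to 394), while osteoblast-like and tendon-like cells did not differ beyond counting error at 178 CPM each and fibroblast-like cells held 110 CPM. MGJ2 chondrocyte-like cells held 932 CPM of Fmod, 581 CPM of Lum and 321 CPM of Prelp.

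Osteomodulin (Omd), first known from bone matrix, was highest in chondrocyte-like and osteoblast-like cells of MGJ, though the size of the latter class varied between settings. MGJ held 360 CPM of Omd in chondrocyte-like cells (355 to 364) and 285 CPM in osteoblast-like cells (270 to 301), against 44.2 CPM in tendon-like cells and 11.4 CPM in fibroblast-like cells (8.7 to 14.6). In MGJ2 chondrocyte-like cells Omd was at 499 CPM (478 to 521). Keratocan (Kera), best known from the cornea, was highest in tendon-like cells. It reached 109 CPM there (102 to 116), 15.2-fold more than the 7.17 CPM of fibroblast-like cells (11.03 to 21.5), and chondrocyte-like cells held 4.13 CPM. In neutrophil-like cells 0 UMIs of Kera were counted, and the lower 95% limit of the tendon-like to neutrophil-like ratio was 145. MGJ2 chondrocyte-like cells held 1 UMI of Kera in all.

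Osteoglycin (Ogn) and epiphycan (Epyc), which belong to a further class of the family, lay at opposite ends. Ogn was highest in tendon-like cells at 617 CPM (601 to 634), followed by 410 CPM in fibroblast-like, 221 CPM in osteoblast-like and 91.7 CPM in chondrocyte-like cells. Epyc, a proteoglycan of growth cartilage, reached 322 CPM in chondrocyte-like cells (318 to 327) and 39.1 CPM in osteoblast-like cells, and 12.03 CPM in tendon-like cells. Fibroblast-like cells held 24 UMIs of Epyc, or 4.41 CPM, which was 1.46-fold the blood level (0.891 to 2.29) and so not distinguishable from it. In MGJ2 chondrocyte-like cells Ogn was at 108 CPM and Epyc at 121 CPM (111 to 132).

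Chondrocyte-like and fibroblast-like cells were compared directly in MGJ. Chondrocyte-like cells were at least 2-fold higher for 4 of the 10 members, against 20.3% of all genes tested, and at least 2-fold lower for 2, against 14.4% of all genes. The 4 higher members were Epyc at 73.0-fold (49.0 to 114), Omd at 31.5-fold (24.6 to 41.2), Fmod at 6.41-fold (6.01 to 6.84) and Prelp at 3.55-fold (3.27 to 3.85). Aspn was lower at a ratio of 0.194 (0.187 to 0.201) and Ogn at 0.224 (0.213 to 0.235). Bgn at 0.548, Dcn at 0.554, Kera at 0.576 and Lum at 0.680 were lower by less than 2-fold. The neighbours on chromosome 13, Aspn, Omd and Ogn, thus stood on both sides. The median ratio of the members was 0.628 and that of all genes tested was 1.05. Keeping the 137 cells described next as fibroblast-like, together with the 47 as chondrocyte-like, put Bgn at a ratio of 0.497, past the 2-fold line. The count of lower members was 4 at a finer clustering and without the second clustering of stromal cells. No share of all genes is given for those settings. Over the alternative settings the ratio of Kera ran from 0.0654 to 0.832, that of Dcn from 0.439 to 0.715 and that of Bgn from 0.471 to 0.584, so their side of the 2-fold line depends on how the classes were drawn.

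**Figure D2:**
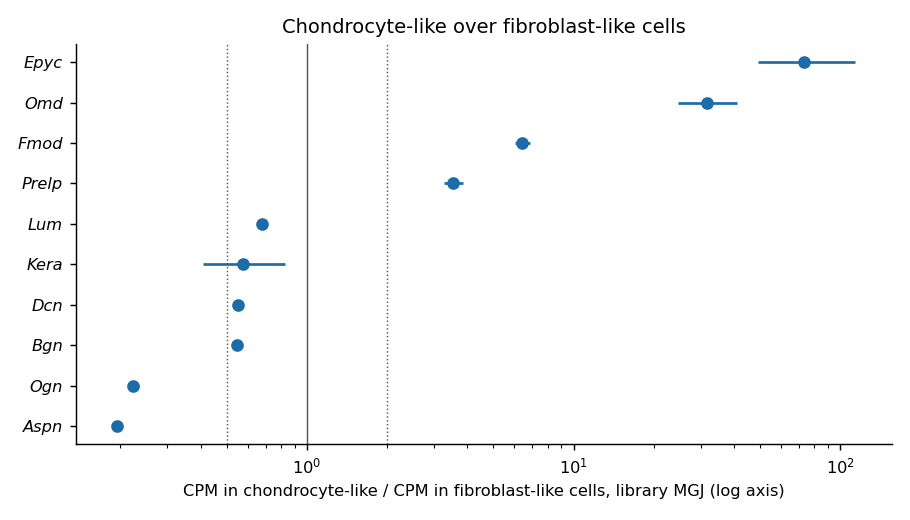
Ratio of CPM in chondrocyte-like to CPM in fibroblast-like cells of MGJ for each SLRP gene (log axis), with 95% conditional binomial intervals; the solid line marks equal levels and the dotted lines a 2-fold difference. Epyc, Omd, Fmod and Prelp lie above the upper dotted line, and Aspn and Ogn below the lower one.

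The 8 unnamed clusters of MGJ held 27.9% of its cells and 39974 SLRP UMIs, or 3831 CPM, which enter no class above. Most of these cells lay in clusters of 1757 and 1655 cells (counted over both libraries) that were nearest to the neutrophil markers but had none of them among the leading genes, with median depths of 1707 and 1807 UMIs. The 3831 CPM pools all 8 clusters, so it is not the level of these shallow ones. The 2 clusters described next were deeper, with medians of 18274 and 20366 UMIs, and each of their cells weighs more in it. Of the unnamed clusters, 2 had no name because markers of another class outnumbered their own among the 10 leading genes. One of 137 cells, nearest to the fibroblast markers, was led by Grem1, Mmp10 and Tagln, and held 5232 CPM of Bgn (5142 to 5322) but only 14.8 CPM of Prelp and 121 CPM of Ogn, where the fibroblast-like class held 110 CPM and 410 CPM. The other, of 47 cells nearest to the chondrocyte markers, was led by the acute-phase genes Saa1, Chil1 and Hp. It held 7651 CPM of Dcn (7478 to 7828) against 2061 CPM in the chondrocyte-like class, and 97.3 CPM of Epyc against 322 CPM. Its Bgn level was 2921 CPM and its Lum level 1708 CPM.

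Shares of cells were compared after thinning each cell to 2000 UMIs, with neutrophil-like cells, a class not known to make SLRPs, as the reference for free RNA. Cells under 2000 UMIs were left out of the thinned shares but count in the unthinned ones, so each such pair rests on different cells. The median depth before thinning was 20474 UMIs in chondrocyte-like, 15864 in fibroblast-like, 15253 in tendon-like and 2495 in neutrophil-like cells of MGJ. Epyc had a UMI in 32.2% of chondrocyte-like cells (30.5 to 34.0; 57.1% unthinned), in 0.610% of fibroblast-like cells (0.0739 to 2.19; 4.83% unthinned) and in 0.948% of neutrophil-like cells (0.435 to 1.79; 1.49% unthinned). The share of fibroblast-like cells with Epyc was thus at the background. Omd had a UMI in 33.3% of chondrocyte-like cells (31.5 to 35.0; 63.9% unthinned) and in 2.74% of fibroblast-like cells (1.26 to 5.14; 11.8% unthinned), with 0.948% in neutrophil-like cells. Aspn was found in 85.5% of tendon-like, 68.3% of fibroblast-like and 16.0% of chondrocyte-like cells against 1.16% of neutrophil-like cells, with unthinned shares of 95.8%, 95.5%, 43.8% and 1.96%. Kera had a UMI in 7.92% of tendon-like cells (5.79 to 10.5; 19.0% unthinned), so most tendon-like cells showed none at this depth. Dcn was found in 7.90% and Bgn in 9.80% of the neutrophil-like cells themselves. In MGJ2 the neutrophil-like shares were 0.875% for Dcn and 1.11% for Bgn, and Epyc had a UMI in 10.2% of chondrocyte-like cells (5.82 to 16.3; 21.5% unthinned). Per chondrocyte-like cell of MGJ a median of 5 of the 10 members was seen at this depth, as in tendon-like cells.

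The SLRP counts of blood cells were set beside those of Col2a1. For each 1000 Col2a1 UMIs, neutrophil-like cells of MGJ held 7.64 UMIs of Epyc (4.84 to 11.5) and 7.31 of Omd (4.57 to 11.1), and chondrocyte-like cells held 6.28 and 7.01, which lie within those intervals. Bgn was at 82.4 per 1000 (72.1 to 93.8) in neutrophil-like against 41.4 in chondrocyte-like cells, and Aspn at 9.97 (6.71 to 14.3) against 3.18. Endothelial-like cells held 169 UMIs of Bgn per 1000 of Col2a1 (155 to 183), more than either, whereas the interval of their 5.78 of Epyc (3.70 to 8.61) held the values of both. The part of free RNA in the blood cell counts was not tested.

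**Figure D3:**
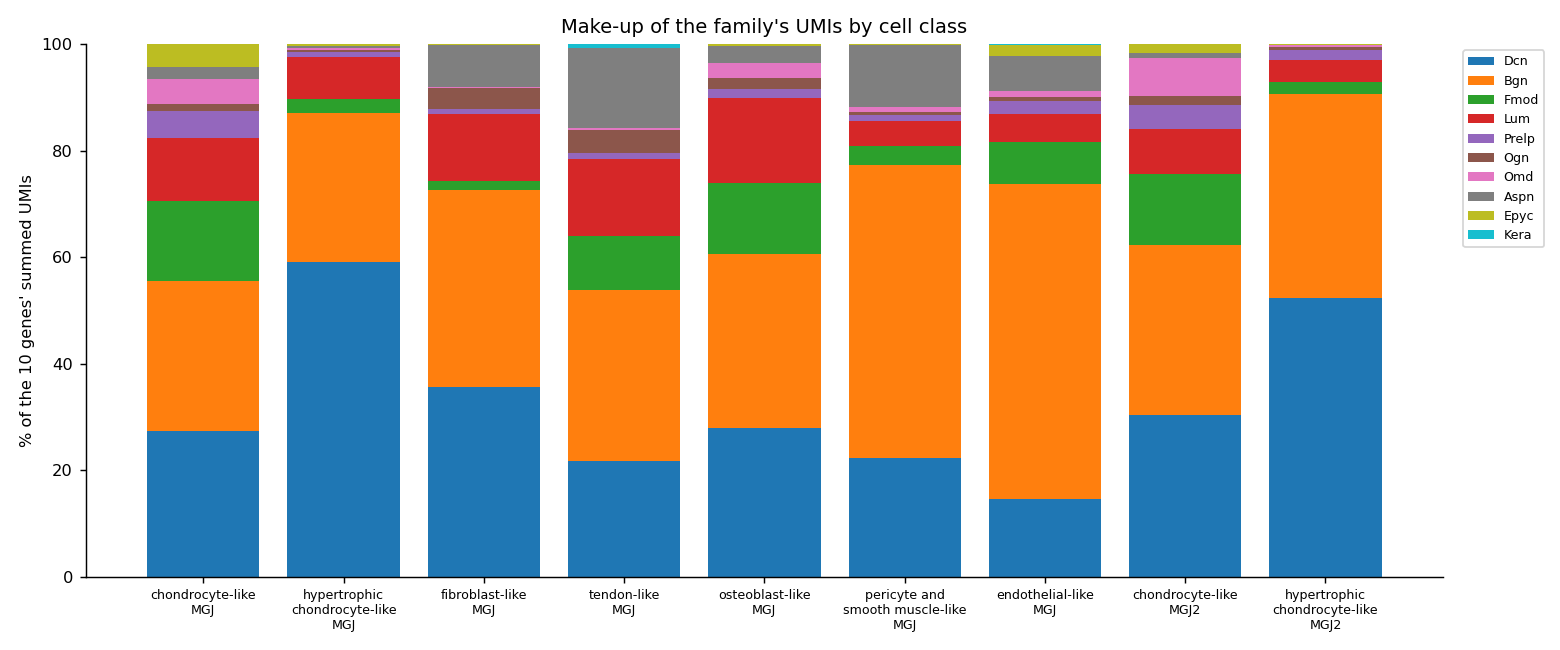
Share of each gene in the summed SLRP UMIs (percent, bars add to 100) of each stromal class, for MGJ on the left and the chondrocyte-like classes of MGJ2 on the right. Dcn makes up 59.0% of the hypertrophic bar of MGJ and 27.4% of the chondrocyte-like bar, and Aspn is widest in tendon-like cells at 14.9%.

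Hypertrophic chondrocytes are the swollen, Col10a1-rich cells whose matrix mineralizes and gives way to bone, and they were set against the other chondrocyte-like cells in each library. Hypertrophic here means the 1 cluster that took this name, with 171 chondrocyte-like cells of MGJ and 57 of MGJ2. The remaining 2824 and 115 chondrocyte-like cells were not all low in Col10a1. In MGJ they included a cluster of 403 cells with Col10a1 at 20506 CPM and one of 36 cells at 10610 CPM. The hypertrophic cluster held 37640 CPM. Members at least 2-fold lower in the hypertrophic cells numbered 8 of 10 in MGJ, against 18.2% of all genes tested, and 7 of 9 in MGJ2, against 11.8%. Members at least 2-fold higher numbered 0 in both, against 9.15% and 5.24% of all genes, and no p was computed. Settings that draw the class another way gave fewer lower members in MGJ, 3 when a Col10a1 UMI defined it. The count was 4 when each cell was named by its own marker score, where Aspn turned to 2.61 and Kera to 2.16. The shares of all genes above belong to the main setting. None is given for these alternatives, so their counts cannot be read against one. Omd was at 22.1 CPM in the hypertrophic and 377 CPM in the remaining cells of MGJ, a ratio of 0.0586 (0.0452 to 0.0748), and at 16.6 and 730 CPM in MGJ2, a ratio of 0.0227 (0.0144 to 0.0341). Epyc was at a ratio of 0.0604 (0.0461 to 0.0778) in MGJ and 0.0244 (0.00890 to 0.0534) in MGJ2. Over the alternative settings the ratio of Omd ran from 0.0421 to 0.725 in MGJ and from 0.0217 to 0.547 in MGJ2, and that of Epyc from 0.0313 to 0.765 and from 0.0162 to 0.410, always below 1.

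The collagen-binding members Fmod, Prelp and Lum were lower in both libraries. Fmod stood at 128 CPM in the hypertrophic cells of MGJ and 1175 CPM in its remaining chondrocyte-like cells, a ratio of 0.109 (0.0981 to 0.120), and at 0.0741 (0.0620 to 0.0878) in MGJ2. Prelp was at 0.111 in MGJ and 0.171 in MGJ2, and Lum at 0.422 and 0.219, but the MGJ ratio of Lum turned to 1.29 when each cell was named by its own marker score. Aspn was at 0.0796 (0.0569 to 0.109) and 0.0554 (0.0221 to 0.116), and Ogn at 0.139 and 0.165. Kera had 1 UMI in the hypertrophic cells of MGJ against 249 in the others, a ratio of 0.0786 (0.00198 to 0.442).

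Dcn and Bgn kept the highest levels of the family in hypertrophic cells. Bgn was lower by less than 2-fold, at a ratio of 0.631 (0.611 to 0.651) in MGJ and 0.633 (0.603 to 0.664) in MGJ2, and its MGJ ratio turned to 1.04 when each cell was named by its own marker score. Dcn was at 2870 CPM in the hypertrophic cells of MGJ and 2019 CPM in its remaining chondrocyte-like cells, a ratio of 1.42 (1.39 to 1.45), and at 2175 and 2081 CPM in MGJ2, a ratio of 1.05 (1.0 to 1.09). The MGJ ratio of Dcn was below 1 in 3 alternative settings, so no direction is given for it. In all, Dcn and Bgn made up 87.0% of the SLRP UMIs of hypertrophic cells in MGJ.

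**Figure D4:**
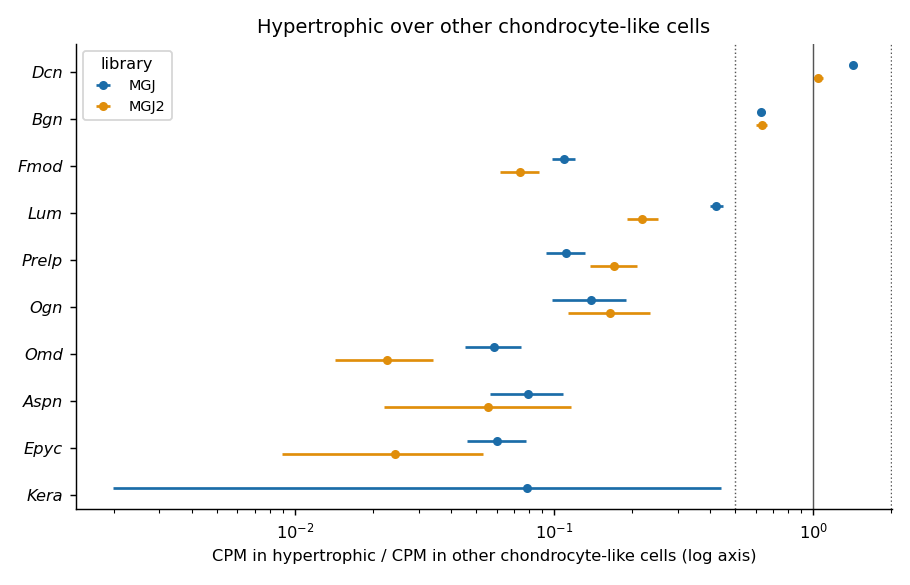
Ratio of CPM in hypertrophic to CPM in other chondrocyte-like cells for each SLRP gene (log axis) in MGJ (blue) and MGJ2 (orange), with 95% conditional binomial intervals; Kera is shown for MGJ only. Dcn and Bgn lie between the dotted 2-fold lines in both libraries, and the other members lie to the left of them.

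Summed markers of cell classes other than cartilage moved with this comparison. The summed CPM of the 4 tendon markers was 15.6 in hypertrophic and 125 in other chondrocyte-like cells of MGJ. That of the 10 fibroblast markers was 96.9 and 392. The 9 osteoblast markers summed to 2074 and 5163 CPM, but most of both sums was Col1a1, with 4398 and 270512 UMIs (ratio 0.318). That sum therefore does not tell how the other osteoblast markers moved. In MGJ2 the 9 neutrophil markers summed to 202 and 4978 CPM. Of the 12 cartilage markers, 9 were at least 2-fold lower in hypertrophic cells of MGJ and 7 in those of MGJ2. The shares of all genes tested were 18.2% and 11.8%. Median ratios of these markers were 0.453 and 0.426. Median depth was 17184 UMIs in hypertrophic and 20675 in other chondrocyte-like cells of MGJ. The part of these differences in the SLRP ratios was not tested.

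Among the 11 chondrocyte-like clusters of MGJ, the members did not follow Col10a1 evenly. In the cluster with the second highest Col10a1 level (20506 CPM), Omd was still at 214 CPM, Epyc at 157 CPM, Prelp at 242 CPM and Fmod at 682 CPM. The lowest values of these members stood in the hypertrophic cluster itself (Col10a1 at 37640 CPM). Ogn and Aspn were low in both clusters, at 23.1 and 28.6 CPM in the former and 13.3 and 13.6 CPM in the hypertrophic one. Low levels were not tied to Col10a1. A cluster with Col10a1 at 2881 CPM held Ogn at 29.1 and Aspn at 33.2 CPM. One with Col10a1 at 10610 CPM held them at 137 and 347 CPM. Epyc was highest, at 630 CPM, in a cluster of 348 cells led by Nos2 and Rnd1, in which Col2a1 reached 70300 CPM. That cluster held 50.8 CPM of Aspn and 44.3 CPM of Ogn. Where Aspn was above 300 CPM, in 5 clusters, Epyc was between 194 and 263 CPM. That range was not particular to them, since Epyc ran from 20.4 to 630 CPM elsewhere and was 200 CPM where Aspn was 123 CPM. Kera was at or under 1.09 CPM in 7 of the 11 clusters and between 5.53 and 22.5 CPM in the other 4, which were all among those 5.

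**Figure D5:**
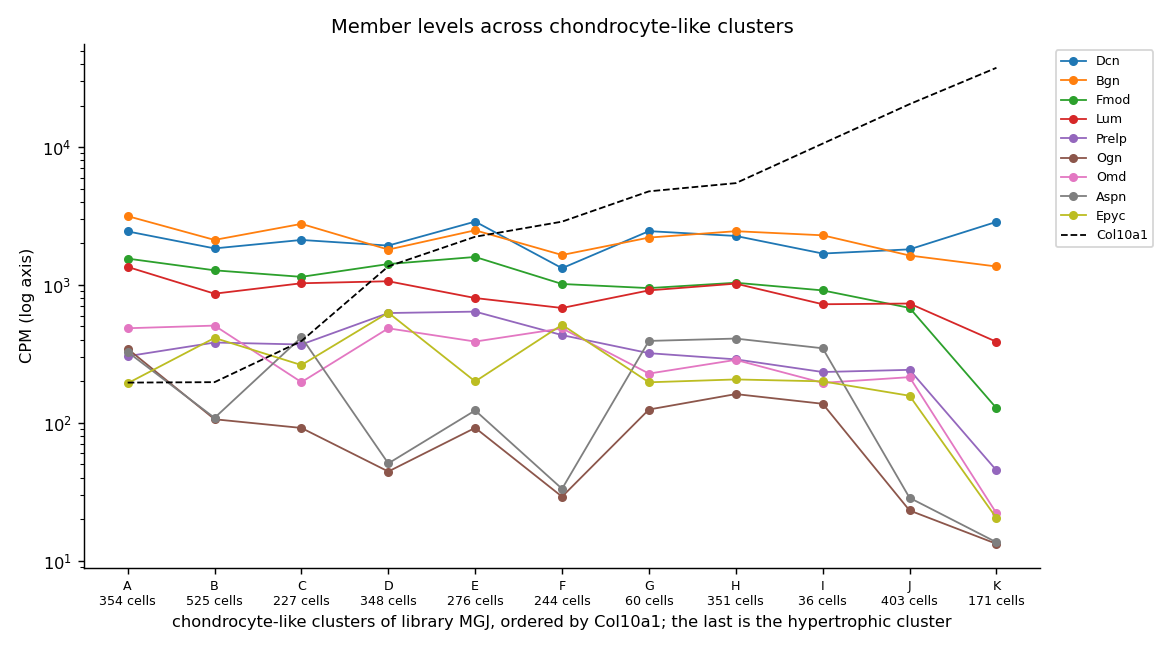
Level in CPM (log axis) of 9 SLRP genes and Col10a1 (dashed) in the 11 chondrocyte-like clusters of MGJ, ordered by Col10a1 and lettered A to K with their cell numbers. Fmod, Prelp, Omd and Epyc are lowest in the last, hypertrophic cluster, while Dcn stays between 1324 and 2884 CPM in every cluster.

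The genes most like each member were sought over 54 cluster sums, each of at least 50 cells of 1 library, by Pearson's r of log2(CPM + 10). These sums share their libraries and depth, and r is given as a description. They span blood and stromal clusters, so r also reflects that split. Omd and Ogn, highest in different classes of MGJ, reached r = 0.747. Dcn was closest to Gpx3 (r = 0.992), Bgn to Col5a2 (r = 0.993), Fmod to Ecrg4 (r = 0.981), Lum to Col1a2 (r = 0.983) and Prelp to Fibin (r = 0.978). Ogn was closest to Naaladl2 (r = 0.982), Omd to Ngef (r = 0.968), Aspn to Tnc (r = 0.971) and Epyc to Crispld1 (r = 0.980), with Ucma next (r = 0.969). Kera had no gene above r = 0.846, the value for Ntn1, and Tnmd, the tendon gene tenomodulin, followed at 0.845. Naaladl2 and Ntn1 were sparse, with 650 and 619 UMIs over all cells. Between members, r was highest for Dcn with Bgn (0.989) and lowest for Epyc with Kera (0.225).

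Among 8 further leucine-rich repeat proteoglycan genes, 6 had enough UMIs for the chondrocyte-like to fibroblast-like comparison in MGJ, of which 2 were at least 2-fold higher and 2 lower, against 20.3% and 14.4% of all genes. Chad, chondroadherin, a cartilage protein that binds collagen and cells, was at 620 CPM in chondrocyte-like and 10.5 CPM in fibroblast-like cells, and Chadl at 149 and 5.70 CPM. Podn was the reverse, at 2.20 and 33.5 CPM. Ecm2, the neighbour of Aspn, was at 24.1 and 29.2 CPM and reached 100 CPM in tendon-like cells. Between hypertrophic and other chondrocyte-like cells, 4 of 6 were at least 2-fold lower and 1 higher in MGJ, against 18.2% and 9.15% of all genes, and 2 of 4 lower and 0 higher in MGJ2, against 11.8% and 5.24%. Chad was at a hypertrophic ratio of 1.41 in MGJ and 0.797 in MGJ2.

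The enzymes that build the sugar chains and the partners of SLRPs were counted in the same comparisons. Of 23 enzyme genes, 22 were tested between chondrocyte-like and fibroblast-like cells of MGJ, and 10 were at least 2-fold higher and 6 lower, against 20.3% and 14.4% of all genes tested. Xylt1, which starts the chain, was at 236 and 45.8 CPM, Chst11, a chondroitin sulfotransferase, at 316 and 108 CPM, and Chsy1, a chain polymerase, at 168 and 70.6 CPM. Csgalnact1, which adds the first chondroitin sugar, was lower at 67.7 and 175 CPM. In hypertrophic cells 8 of 22 were at least 2-fold lower and 1 higher in MGJ, where the shares of all genes were 18.2% and 9.15%, and 5 of 17 were lower and 0 higher in MGJ2, where they were 11.8% and 5.24%. Of 15 binding partners and processing genes, 3 were higher and 5 lower in chondrocyte-like than in fibroblast-like cells of MGJ, and in hypertrophic cells 8 of 15 were lower and 1 higher in MGJ, and 7 of 13 lower and 1 higher in MGJ2. Col1a1, Col1a2 and Col3a1, the fibrillar collagens that SLRPs bind, were at ratios of 0.318, 0.418 and 0.194 in hypertrophic against other chondrocyte-like cells of MGJ, and Col2a1 at 0.456.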

How the data were processed

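The data were scRNA-seq of 2 mouse callus libraries. Filtered UMI count matrices were deposited, made by Cell Ranger 4.0.0 per the file headers and not normalized, and the submitters' processing notes also name Seurat and GRCm38. MGJ held 14295 barcodes and 135304426 counts and MGJ2 held 8009 and 61130834, with medians of 5026 and 4952 per barcode. Barcodes with under 200 genes (371 and 70) or over 20% mitochondrial counts (464 and 133) were removed.

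Doublets were scored by a Scrublet procedure. Its automatic threshold called 0 doublets in MGJ, which is too few for so many cells, so the threshold of MGJ2 (0.258) was used for both, removing 488 and 223 (3.63% and 2.86%, below the 10.8% and 6.24% expected from the barcode numbers), so doublets may remain. Cells were clustered with scanpy 1.11.5 and Leiden (leidenalg 0.10.2) on 2000 variable genes, 30 components and 15 neighbours at resolution 1, without the SLRP genes, and stromal clusters were then clustered again. A cluster took the name of 1 of 24 marker lists when its score (mean log2(CPM + 10) less the mean over clusters) was at least 1 with 3 or more markers, and none where markers of other classes outnumbered its own among its 10 leading genes. An earlier form of this last rule left a cluster unnamed only at 2 or more such markers. The stricter form was adopted after member levels had been seen, and the earlier one is given as an alternative. Members, lists and rules were chosen with earlier results of these data known.

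Named were all 10 members, the 3 genes most correlated with each (at least 500 UMIs) and, of 3 further lists, at most the 4 genes with the highest stromal CPM. A called gene had a ratio of at least 2 or at most 0.5 and at least 50 UMIs over both classes. The ratio intervals and calls were run on simulated Poisson counts. These follow the assumptions of the intervals, so this checks the computation only, and not spread between cells or the drawing of classes. With 1 library per class set, no p was computed. Gene positions came from GENCODE M21, which held 32235 of the 32285 gene IDs. Analyses used Python 3.11.15 and scipy 1.17.1. In all, 17 alternative settings were run, 4 of them added after the data had been seen.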

Additional observations from a re-analysis of the deposited data

Results flagged for a closer look

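Barcodes removed by the filters also held SLRP counts, in data that no comparison above used. In MGJ the 1323 removed barcodes held the 10 genes at 5321 CPM (5274 to 5368), where kept cells held 5889 CPM. In MGJ2 the 426 removed barcodes held them at 93.8 CPM (83.3 to 105), where kept cells held 654 CPM. Both lie above the level that 3 UMIs would give.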

How the results depend on the processing

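Of the counts of members recomputed under the alternatives, 132 stayed within 1.5-fold of the reported count and 8 did not. The members lower in chondrocyte-like than in fibroblast-like cells of MGJ were 4 at Leiden resolution 2 and 4 without the second clustering. The members higher in hypertrophic cells of MGJ were 1 at resolution 2 and 2 when each cell took the name of its highest marker score. The members lower there were 4 under that naming and 3 when a Col10a1 UMI defined the class. Shares of all genes are not given for the alternatives, so these counts cannot be read against one. No member was highest in fibroblast-like cells (0) with at least 500 genes per barcode or with naming cell by cell. In MGJ the hypertrophic ratio of Dcn changed direction to 0.919 at resolution 0.5, 0.989 with each library clustered alone and 0.953 by a Col10a1 UMI. Naming cell by cell turned Bgn to 1.04, Lum to 1.29, Aspn to 2.61 and Kera to 2.16, and resolution 2 turned Kera to 2.41. The Epyc ratio of chondrocyte-like to fibroblast-like cells ranged from 19.4, with doublet calls kept, to 117. Of the single ratios, 163 moved by less than their interval, 233 by more and 8 changed direction, and of the thinned shares 55 moved by less and 35 by more. Without the second clustering no cluster was named hypertrophic. The causes were not tested. The hypertrophic class of MGJ, at 171 cells, held up to 1323 cells in the alternatives. The osteoblast-like class of MGJ, at 281 cells, held 59 with at most 10% mitochondrial UMIs and 0 at resolution 0.5. No paired analysis was possible because the libraries form no labelled groups. Kera was too sparse in MGJ2, at 1 UMI in chondrocyte-like cells, for any ratio.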
